A study of Homo sapiens with 6 samples.

Results

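The genes described are the IL6 family of cytokines as 12Z cells express it: the ligands IL6, LIF, IL11 and CLCF1, the receptor chains IL6R, IL6ST, LIFR and OSMR, the transcription factor STAT3 and its feedback inhibitor SOCS3. They were chosen by name, and each of the 10 symbols matched exactly 1 row of the 60419 in the deposited tables. All 10 passed the filter on low counts, after which 16395 genes were tested.

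12Z is a human line, labelled wild type, that was immortalised from endometriosis, a disease in which tissue like the uterine lining grows outside the uterus. One group was given 100 µg/mL of an extract of myrrh, a tree resin, dissolved in DMSO, for 12 h, and the control group DMSO alone. Both were kept in medium with 10% charcoal-stripped serum, which is depleted of steroids. Each group had 3 RNA-sequencing libraries, and the comparison asks which genes respond to the extract. The line is 1 model of the disease in culture, without the other cells of a lesion, and no label says that the libraries came from separate cultures. The p-values therefore rest on a spread between libraries that may be technical.

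Cytokines of this family signal through receptor complexes that contain the shared chain gp130, the product of IL6ST. IL6R and IL11RA make a cell responsive to IL6 and IL11, while LIFR or OSMR pair with gp130 for LIF, oncostatin M and related ligands. The complexes activate JAK kinases, these phosphorylate STAT3, and STAT3 induces SOCS3, which binds gp130 and JAK and dampens the signal. In the uterus LIF is known for its part in embryo implantation, IL11 for its part in decidualisation, and IL6 is an inflammatory cytokine much studied in endometriosis.

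The libraries held 22454783 to 27588151 estimated counts. By the authors' TPM (a level per transcript length, scaled to a fixed sum in each library), the 6 epithelial markers summed to 1574 to 1605 in DMSO and 1162 to 1266 in Myrrh, with 4 of the 6 above 1 TPM in every library and the defining adhesion gene CDH1 at a mean of 0.133 and 0.293 TPM. Of the 5 epithelial markers tested, the abundant keratins KRT8, KRT18 and KRT19 fell, while EPCAM rose 2.19-fold and KRT7 1.44-fold; with library totals 1 of the 5 was called higher. The 7 stromal markers were also present and summed to 2755 to 2820 TPM in DMSO and 508 to 544 TPM in Myrrh, and all 7 fell. Endothelial markers summed to at most 0.27 TPM in any library. The 8 leukocyte markers summed to 30.75 to 34.1 TPM in DMSO and 53.6 to 76.8 TPM in Myrrh. Most of this was CD68, which many cell types express, the only one above 1 TPM in every library, and it rose 1.78-fold, whereas CD14 fell 4.84-fold, PTPRC fell from 46 to 5 counts over a group, and CD3E and MS4A1 had no counts. The epithelial, stromal and leukocyte sums thus differed between the groups alongside every result below; their part in those results was not tested. In bulk RNA, fewer cells of a type and less RNA per cell cannot be told apart.

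The start regions of the ligands IL6 and IL11 are shown because both genes rose by over 2-fold and each holds a match to a site of a stress- or cytokine-responsive factor. The sequences are the 250 bases before the RefSeq transcription start on GRCh38.p14, for IL6 chr7:22726950-22727199 on the plus strand and for IL11 chr19:55370464-55370713 on the minus strand. Capitals mark motif matches.
IL6: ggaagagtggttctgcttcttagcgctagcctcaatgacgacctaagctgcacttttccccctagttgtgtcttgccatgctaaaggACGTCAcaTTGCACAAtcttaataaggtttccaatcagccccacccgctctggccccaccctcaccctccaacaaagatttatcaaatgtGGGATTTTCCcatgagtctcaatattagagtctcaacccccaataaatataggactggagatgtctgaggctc
IL11: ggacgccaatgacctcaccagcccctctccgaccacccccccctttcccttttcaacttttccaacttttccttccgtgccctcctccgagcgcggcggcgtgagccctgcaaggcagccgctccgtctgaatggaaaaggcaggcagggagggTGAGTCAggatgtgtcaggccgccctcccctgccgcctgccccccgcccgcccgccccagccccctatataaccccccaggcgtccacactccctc
In IL6 the capitals are a cyclic AMP response element core (TGACGT, on the opposite strand, 163 to 158 bases before the start), a C/EBP motif (TTGCNNAA, 155 to 148 bases before it) and an NF-kB motif (GGG and TTTCC with any 2 bases between, 73 to 64 bases before it). In IL11 they are an AP-1 motif (TGANTCA, 96 to 90 bases before the start).

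The RefSeq promoter table matched 8 of the 10 genes, with 11 start sites, since LIFR and SOCS3 have more than 1 entry; LIF and CLCF1 had no entry and were not searched. These RefSeq starts differ from the gene starts of GENCODE release 29 for every gene but IL11, most for LIFR, IL6 and SOCS3 (for SOCS3 78360925 and 78359667, against 78360077 in GENCODE). Both strands of these windows were searched for 7 motifs, and none of the matches overlapped another. The NF-kB motif was in 1 of the 11 windows, that of IL6, and in 1.73% of all 35116 windows of the table. AP-1 was in 1 (IL11) against 6.57% of all windows, the cyclic AMP response element core in 1 (IL6) against 7.10%, and C/EBP in 3 (IL6, OSMR and a start of LIFR) against 9.05%. The STAT motif TTCNNNGAA was in 2 windows, both of LIFR (TTCCTTGAA and TTCATCGAA), and in 6.57% of all. The letters were not in the 2 windows searched for SOCS3, neither of which ends at its GENCODE start, and nothing is read from that. No window of these genes held the heat shock motif GAANNTTC (5.78% of all) or the ATF4 composite motif TGATGNAA (3.14%). These are matches of letters, not measured binding.

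Of the 10 genes, 7 rose and 2 fell in Myrrh, and OSMR was not called, by edgeR's quasi-likelihood test at an adjusted p of 0.05. With 78.4% of all tested genes called, 39.3% as higher and 39.1% as lower, 9 called genes of 10 say little by themselves, and the sizes and directions carry the description. Scaled to library totals, the split over all genes was 5378 higher and 7479 lower, against 6436 and 6418, and that of the 10 genes was 6 higher and 3 lower. A change of at least 2-fold was also reached by 3 genes, all ligands and all higher, where 29.4% of tested genes reached that size, 11.3% as higher and 18% as lower. The median log2 fold change of the 10 was 0.46, against -0.02 over all tested genes, whose quartiles were -0.69 and 0.55. The CPM of the groups did not overlap for 8 of the 10, as for 80.3% of all tested genes. Of these 8, 6 were higher in Myrrh (40.1% of all) and 2 lower (40.2% of all). Values below are in CPM, counts relative to a library's total as scaled with TMM factors, unless TPM is named, and all changes are Myrrh against DMSO.

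**Figure D1:**
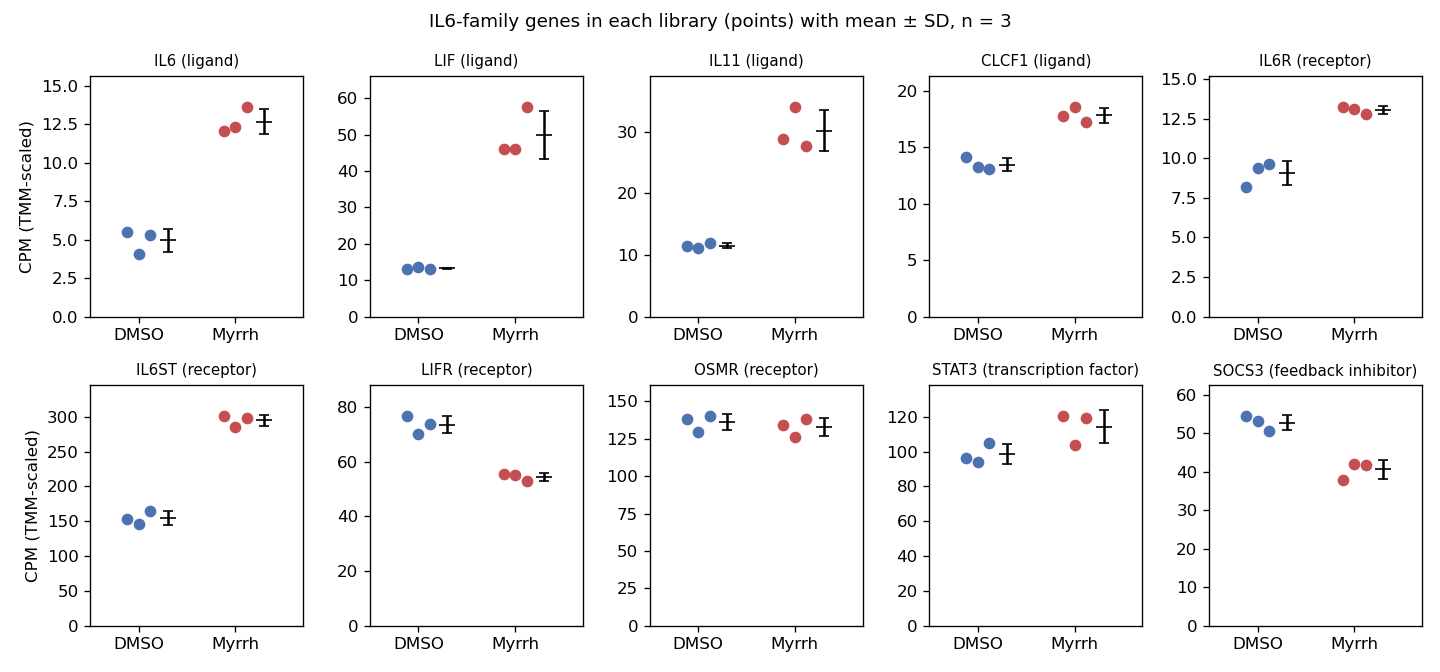
CPM (linear axis from 0) of each gene in the 3 DMSO and 3 Myrrh libraries; points are libraries and bars the mean ± SD. The groups do not overlap for 8 genes, whereas OSMR and STAT3 overlap.

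LIF, the leukaemia inhibitory factor, had the largest change of the 10 genes. Its level was 13.0, 13.5 and 13.2 CPM in the DMSO libraries and 46.2, 46.0 and 57.5 CPM in the Myrrh libraries. Every Myrrh library lay far above every DMSO library, and Myrrh replicate 3 was the highest. LIF rose 3.76-fold (log2 fold change 1.91 ± 0.08, SE; adjusted p = 3.35e-15 by edgeR), and 97.8% of tested genes had a lower log2 fold change.

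IL11, a cytokine of stromal and epithelial cells, was measured at 11.4, 11.1 and 11.9 CPM in DMSO. The Myrrh libraries gave 28.8, 33.9 and 27.7 CPM, without overlap, and replicate 2 was the highest. IL11 rose 2.63-fold (1.39 ± 0.08, SE; adjusted p = 2.64e-14 by edgeR). On the authors' log2(TPM + 1) scale the difference was 1.14.

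IL6 itself had the fewest counts of the ligands, with 394 over the DMSO and 852 over the Myrrh libraries. Per transcript length it was not the lowest, with a mean of 9.42 TPM in DMSO against 4.89 TPM for LIF. IL6 stood at 5.47, 4.06 and 5.30 CPM in DMSO and at 12.1, 12.3 and 13.6 CPM in Myrrh. DMSO replicate 2 was low, which was also seen in TPM (6.73 against 10.8 and 10.7 in the other DMSO libraries), and the groups did not overlap. IL6 rose 2.57-fold (1.36 ± 0.11, SE; adjusted p = 3.48e-11 by edgeR), and without that library the log2 fold change was 1.23.

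CLCF1, a ligand that acts on the ciliary neurotrophic factor receptor, changed least among the ligands. It went from 14.1, 13.3 and 13.1 CPM to 17.8, 18.6 and 17.2 CPM, again without overlap. CLCF1 rose 1.33-fold (0.41 ± 0.08, SE; adjusted p = 4.5e-05 by edgeR), a size that 69.1% of tested genes did not reach in the upward direction. Of its exon bases, 3.09% are shared with AP003419.1, an annotated protein-coding gene on the same strand, which fell by 0.43 ± 0.12 on the log2 scale.

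Among the receptor chains IL6R, IL6ST, LIFR and OSMR, the shared subunit IL6ST had the largest change. The DMSO libraries held 154, 146 and 165.3 CPM and the Myrrh libraries 301, 286 and 298 CPM, with a wide gap between the groups. IL6ST rose 1.91-fold (0.93 ± 0.06, SE; adjusted p = 3.75e-14 by edgeR), just under the 2-fold mark, and it was the member with the most counts, 12430 in DMSO and 19913 in Myrrh.

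IL6R, the chain that binds IL6, was at 8.17, 9.37 and 9.63 CPM in DMSO and at 13.2, 13.1 and 12.8 CPM in Myrrh. The groups did not overlap, and DMSO replicate 1 was the lowest library. IL6R rose 1.44-fold (0.52 ± 0.09, SE; adjusted p = 1.46e-05 by edgeR).

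LIFR, the chain for LIF, moved the opposite way from its ligand. It went from 76.7, 70.4 and 73.9 CPM in DMSO to 55.7, 55.1 and 52.8 CPM in Myrrh, and all Myrrh libraries were lower. LIFR fell by 0.43 ± 0.05 (SE) on the log2 scale, 1.35-fold (adjusted p = 7.37e-08 by edgeR). LIFR-AS1, an antisense gene that covers 5.30% of the LIFR exon bases, fell by 1.09 ± 0.22 on the log2 scale, from 2.49 to 1.18 CPM. Whether counting used the strand is not stated, so in the bases they share the reads of the 2 genes cannot be told apart.

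OSMR, the oncostatin M receptor chain, was at 139, 130 and 140 CPM in DMSO and at 135, 126 and 138 CPM in Myrrh. The groups overlapped, and the log2 fold change was -0.03 ± 0.05 (SE; adjusted p = 0.554 by edgeR). Its direction depended on the scale. In TPM the Myrrh libraries (49.3, 44.11 and 48.05) all lay above the DMSO libraries (43.1, 38.1 and 44.05), by a margin of hundredths, with a log2 difference of 0.17 and an adjusted p of 0.0582 by limma. With library totals as the scaling instead of TMM, OSMR was called lower at -0.18 (adjusted p = 0.00572 by edgeR), and with a filter of 5 CPM in 3 libraries it was also called lower at -0.13 (adjusted p = 0.014 by edgeR). The ratio of CPM on library totals to TPM, which follows the transcript length used for TPM, differed by -0.35 on the log2 scale between Myrrh and DMSO for OSMR, against a median of -0.18 over 13923 genes. Most of these genes lay between -0.53 and 0.02, as OSMR did. RICTOR, on the opposite strand, covers 3.19% of the OSMR exon bases and was not called (-0.05 ± 0.05).

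STAT3, the main transcription factor of the pathway, was measured at 96.6, 93.9 and 105 CPM in DMSO and at 120, 103 and 119 CPM in Myrrh. The groups overlapped, since Myrrh replicate 2 lay below DMSO replicate 3. STAT3 rose 1.16-fold (0.22 ± 0.06, SE; adjusted p = 0.00188 by edgeR). The call was lost with library totals (0.07, adjusted p = 0.312 by edgeR), with the filter of 5 CPM in 3 libraries (0.12, adjusted p = 0.0672 by edgeR) and on log2(TPM + 1) with all genes above 0 kept (adjusted p = 0.0878 by limma).

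SOCS3, which STAT3 induces and which shuts the receptor off, was at 54.4, 53.2 and 50.7 CPM in DMSO. The Myrrh libraries gave 37.9, 42.1 and 41.9 CPM, all lower. SOCS3 fell by 0.38 ± 0.06 (SE) on the log2 scale (adjusted p = 2.79e-06 by edgeR). LIFR and SOCS3 were the 2 genes that fell, while all 4 ligands, IL6ST, IL6R and STAT3 rose.

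**Figure D2:**
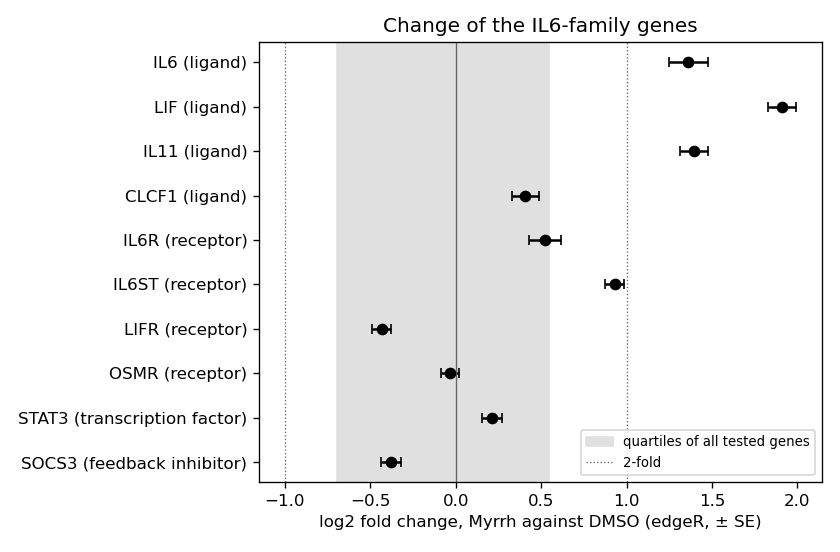
Log2 fold change of each gene (edgeR, points) with its standard error; the grey band spans the quartiles of all 16395 tested genes and dotted lines mark 2-fold. LIF, IL11 and IL6 lie beyond 2-fold and IL6ST just inside it, OSMR at -0.03 lies at 0.17 on log2(TPM + 1), and STAT3 was not called with library totals.

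Per transcript length, the order of the 10 genes differed between the groups. In DMSO, OSMR was highest at 41.8 ± 3.18 TPM (mean ± SD, n = 3), followed by STAT3 (29.03 ± 2.23) and SOCS3 (26.4 ± 0.771), whose ranges overlapped, and by IL6ST (23.3 ± 1.80). CLCF1 (11.3 ± 0.513) was the highest ligand there, while LIFR (9.93 ± 0.839), IL11 (9.82 ± 0.792) and IL6 (9.42 ± 2.33) did not differ beyond their spread. LIF at 4.89 ± 0.275 TPM and IL6R at 2.28 ± 0.0643 TPM were lowest.

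In Myrrh, OSMR (47.2 ± 2.72 TPM) and IL6ST (46.0 ± 3.61) overlapped at the top, above STAT3 (34.9 ± 4.06). IL6 (23.2 ± 3.29) and IL11 (22.8 ± 0.702) came next and overlapped. SOCS3 (21.0 ± 0.958), now below IL11, overlapped with IL6 and with LIF (18.1 ± 2.57). The range of LIF also overlapped those of IL6 and CLCF1 (15.5 ± 0.661). LIFR (7.70 ± 0.456) and IL6R (3.12 ± 0.227) were lowest. CLCF1 thus went from the highest of the 4 ligands by mean TPM to the lowest, although it rose.

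**Figure D3:**
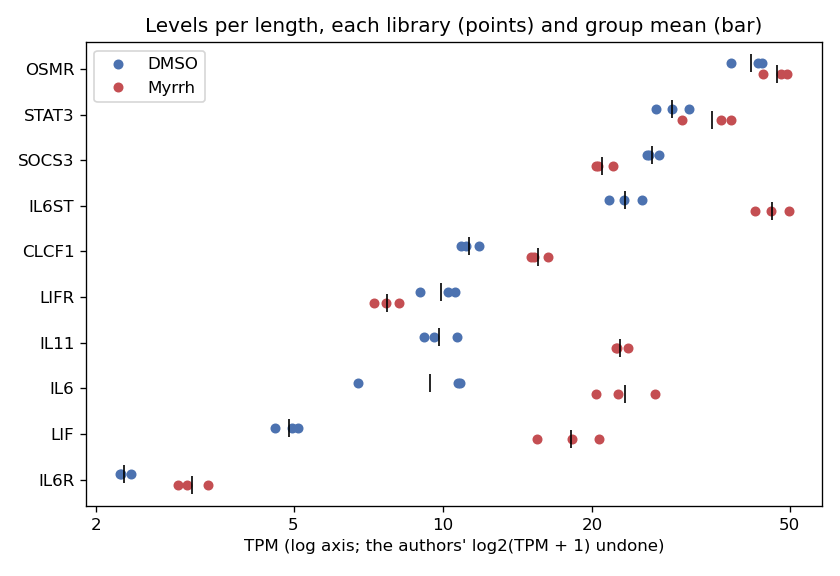
TPM (log axis) of each gene in each library, DMSO above Myrrh in each row, with a bar at the group mean; genes are ordered by their DMSO mean. IL6, IL11, LIF and IL6ST sit far to the right in Myrrh, and IL6R is lowest in both groups at 2.28 and 3.12 TPM.

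The rest of the pathway was read from 9 lists, chosen with results of these data known and described by counts and medians only. Their counts stand against the same background, 39.3% of all tested genes higher and 39.1% lower, with a median of -0.02, and lists this short are not set apart from it here. Of 7 other ligands and partner subunits, 4 were tested, 3 fell and none rose (median log2 fold change -0.76). EBI3, a subunit of interleukins 27 and 35, fell by 1.76 ± 0.33, from 1.41 to 0.414 CPM. CNTF, the ciliary neurotrophic factor, fell by 1.05 ± 0.37, from 57 to 23 counts over a group, a call that was lost with DESeq2 (adjusted p = 0.0696), on log2(TPM + 1) with all genes above 0 kept (adjusted p = 0.0721 by limma), against a log2 fold change of 0.5 (adjusted p = 0.0556 by glmTreat) and without DMSO replicate 1 (adjusted p = 0.0584 by edgeR). OSM, the ligand of OSMR, had 2 counts over the DMSO libraries and 1 over the Myrrh libraries and was not tested.

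Of 4 further receptor chains 3 were tested, 1 fell and none rose (2 fell with library totals). CNTFR, the ciliary neurotrophic factor receptor chain, had 20 counts over the DMSO and 18 over the Myrrh libraries and was not tested. The chain that fell was IL11RA, which binds IL11. It stood at 15.3, 14.4 and 13.4 CPM in DMSO and at 2.14, 1.26 and 2.11 CPM in Myrrh, so that ligand and receptor moved in opposite directions with no overlap of the groups in either. IL11RA fell by 2.96 ± 0.14 (SE) on the log2 scale, 7.78-fold (adjusted p = 5.08e-16 by edgeR). GALT, a neighbour on the same strand that shares 7.82% of the IL11RA exon bases, fell by 0.88 ± 0.08. AL162231.3, another annotated protein-coding gene on that strand, shares 9.6% of the IL11RA exon bases and was not tested.

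Of the 4 JAK kinases 2 were higher and 2 lower, the same even split as over all genes. JAK1, the kinase most used by gp130, went from 241 ± 0.733 to 305 ± 9.03 CPM (mean ± SD, n = 3) and rose by 0.34 ± 0.05. JAK2 rose by 0.41 ± 0.10, but was not called on log2(TPM + 1) (adjusted p = 0.0809 by limma). JAK3, a kinase of lymphoid cells, fell by 1.89 ± 0.30 from 129 to 29 counts over a group, and TYK2 fell by 0.35 ± 0.05.

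Apart from STAT3, 5 of the 6 other STAT genes fell and none rose (median -0.42), where 39.1% of all tested genes fell. STAT2, a factor of the interferon response, went from 162 ± 2.48 to 84.9 ± 12.0 CPM and fell by 0.93 ± 0.08. STAT4 fell by 1.002 ± 0.26 from 131 to 55 counts.

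Of the 7 other SOCS family genes, 4 rose and none fell (median 0.22), where 39.3% of all tested genes rose; SOCS3 itself fell. With library totals 3 rose and none fell, and the median was 0.08. SOCS2, a regulator of growth hormone signalling, was at 1.52, 1.35 and 1.298 CPM in DMSO and at 5.58, 4.75 and 5.92 CPM in Myrrh. It rose by 1.96 ± 0.17 (adjusted p = 9.84e-11 by edgeR). SOCS6 rose by 0.58 ± 0.06. SOCS1, an inhibitor of JAK kinases, rose by 0.42 ± 0.12, a call that was lost without Myrrh replicate 2 (adjusted p = 0.0589 by edgeR).

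Of 8 phosphatases and PIAS genes that restrain JAK-STAT signalling, 7 were tested, with 4 higher and 1 lower. PTPN11 and PTPN2, both tyrosine phosphatases, rose by 0.28 ± 0.05 each, and PIAS3, an inhibitor of STAT3, fell by 0.88 ± 0.06. With library totals this split was 2 higher and 2 lower.

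**Figure D4:**
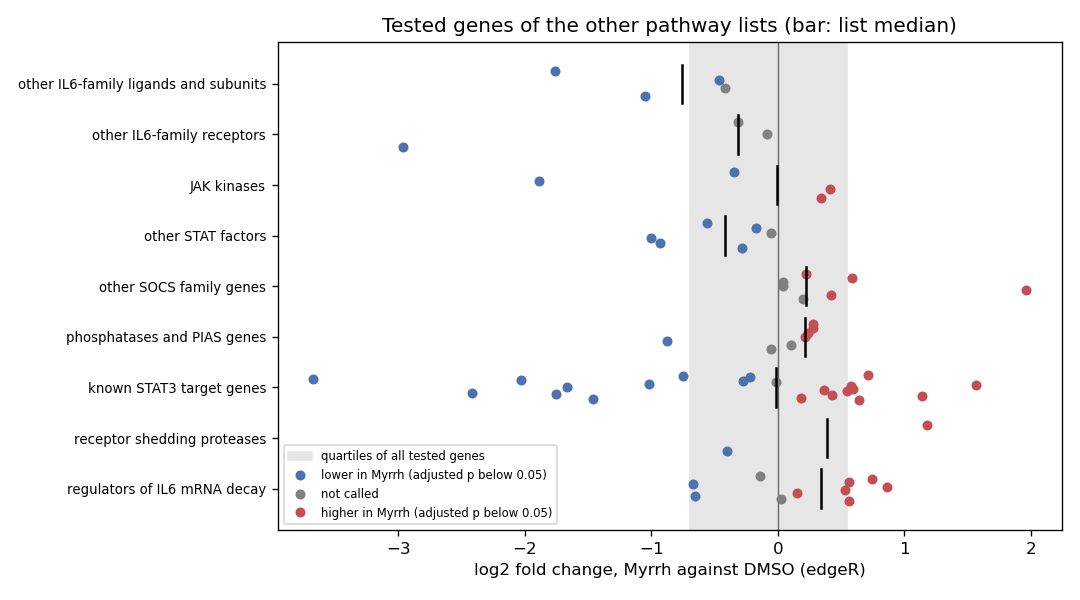
Log2 fold change of each tested gene in the 9 other lists, coloured by its call, with a bar at the list median and a grey band at the quartiles of all tested genes. IL11RA at -2.96 and SOCS2 at 1.96 stand apart from the rest of their lists, and genes known as STAT3 targets lie on both sides of 0.

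Of 29 genes known as STAT3 targets, 21 were tested, 10 rose and 10 fell, with a median of -0.01 against -0.02 over all tested genes, of which 39.3% rose and 39.1% fell. By these calls the targets were split as evenly as all genes were. At 2-fold, however, 2 of them were higher and 7 lower, where 11.3% of all tested genes were higher and 18% lower. MYC, a growth-promoting transcription factor, rose by 1.57 ± 0.05, from 45.5 ± 2.08 to 135 ± 5.51 CPM (mean ± SD, n = 3), and CCND1, cyclin D1, rose by 1.14 ± 0.34 at a mean of 0.44 and 0.987 CPM, though not on log2(TPM + 1) with all genes above 0 kept (adjusted p = 0.121 by limma). FOS, a component of AP-1, was at 160.6, 129 and 103 CPM in DMSO and at 24.98, 25.05 and 23.5 CPM in Myrrh, and fell by 2.42 ± 0.21. SAA2, an acute phase protein that shares reads with SAA1, had 50 counts in DMSO and 3 in Myrrh. Relative to the TMM-scaled library totals, DMSO over Myrrh was a ratio of 14.0. Its 95% exact binomial interval was 4.52 to 70.2, for counting error only. The 8 genes that were not tested included CRP and the fibrinogen genes FGA, FGB and FGG, acute phase genes of the liver.

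The proteases that shed receptors of this family also moved apart. ADAM17, which releases soluble IL6R, was at 35.6, 32.0 and 37.4 CPM in DMSO and at 85.7, 68.2 and 83.2 CPM in Myrrh and rose by 1.18 ± 0.09 (adjusted p = 2.36e-08 by edgeR). ADAM10 fell by 0.41 ± 0.05, but on log2(TPM + 1) it was not called and the difference was -0.07 (adjusted p = 0.565 by limma).

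Of 10 genes whose products act on the stability of IL6 mRNA, 6 rose and 2 fell (median 0.34); with library totals the split was 5 and 4. RC3H2, a relative of the decay factor roquin, rose by 0.86 ± 0.05 and ZFP36L1, which binds AU-rich elements, by 0.74 ± 0.06. ZC3H12A, the nuclease Regnase-1 that cleaves IL6 mRNA, fell by 0.67 ± 0.06 and HNRNPD, also known as AUF1, by 0.66 ± 0.06. Changing from TMM factors to library totals shifted the median of all genes by -0.14, which is as large as some of the changes called in these lists.

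Other annotated genes also overlap IL6ST, IL6 and LIF. For IL6ST, 8.58% of its exon bases are shared with AC008914.1, an antisense gene that was not tested. For IL6, 20.7% of its exon bases are shared with AC073072.1, an antisense gene with too few counts to be tested. For LIF, AC004264.1 on the opposite strand covers 4.41% of the exon bases and was not called (0.02 ± 0.36, from 0.598 to 0.608 CPM). In GRCh38, IL6 lies on chromosome 7 at 22725884 to 22732002, LIF on chromosome 22 at 30240447 to 30246851, IL11 on chromosome 19 at 55364389 to 55370463, and CLCF1 on chromosome 11 at 67364168 to 67374177. IL6ST (55935095 to 55994993), LIFR (38474963 to 38608354) and OSMR (38845858 to 38945596) are all on chromosome 5, IL6R is on chromosome 1 at 154405193 to 154469450, and STAT3 (42313324 to 42388568) and SOCS3 (78356778 to 78360077) are on chromosome 17. LIFR and OSMR, neighbours on opposite strands of chromosome 5, had log2 fold changes of -0.43 ± 0.05 and -0.03 ± 0.05.

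**Figure D5:**
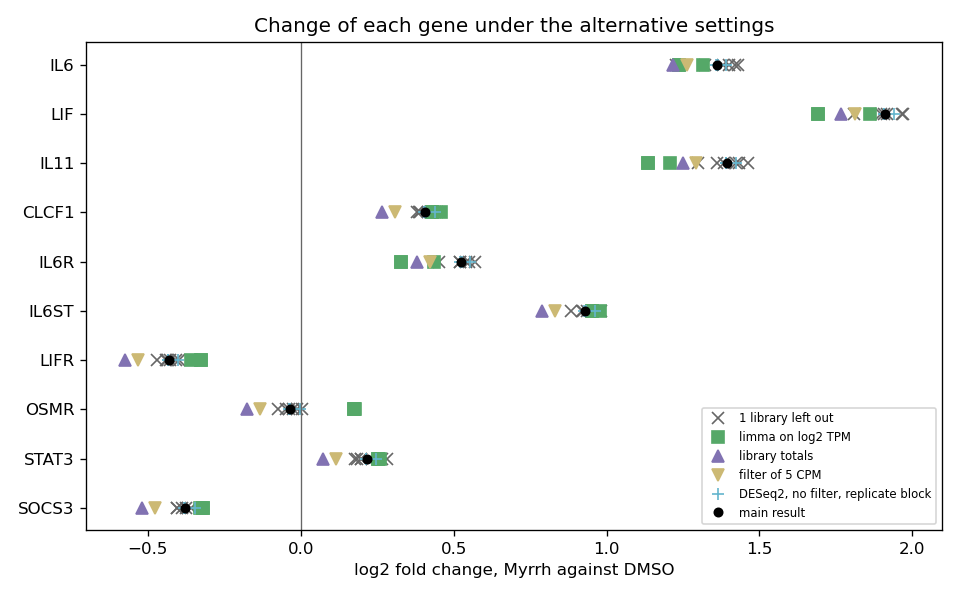
Log2 fold change of each gene under the main test and the alternative settings (glmTreat, whose fold changes are those of the main test, is left out). The 3 ligands IL6, LIF and IL11 stayed above 1 under every setting drawn, whereas OSMR lay from -0.18 with library totals to 0.18 on log2(TPM + 0.1).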

How the data were processed

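RNA sequencing was done on 6 libraries made from 1.5 µg of total RNA each, 3 per group by the sample titles. The authors' first table holds unscaled estimated counts per gene. The submitters' processing notes name STAR, RSEM 1.3.1 and GRCh38; no source used here gives the annotation or the strand setting. The authors' second table gives log2(TPM + 1), per the file headers and values; it was undone to TPM for levels.

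Counts were rounded, filtered with filterByExpr, scaled with TMM and tested with edgeR 4.0.16 (R 4.3.3) by the quasi-likelihood F-test, two-sided, without a block, with Benjamini-Hochberg adjustment over 16395 genes and a threshold of 0.05. Standard errors (SE) were taken as log2 fold change over the root of F. The test was also run on simulated data in which far fewer genes changed than were called here. Their spread was the one that edgeR fitted to these data. That run therefore bears neither on the choice of scaling nor on the fitted spread, and nothing is read from it. Within groups, counts of paired libraries differed by a chi-square of 3.65 to 8.71 per degree of freedom, so none was counted as a repeat. Alternatives used DESeq2 1.42.0, limma 3.58.1, other filters, scalings and left-out libraries. Annotation was from GENCODE release 29, and promoters from RefSeq on GRCh38.p14.

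The members and lists were chosen with earlier results of these data known. Named were all members, up to 2 called genes with the highest and 2 with the lowest log2 fold change per pathway list, and a few fixed genes, among them JAK1, JAK2 and SOCS1; some genes these rules name are not reported here. Other genes named by count or as not tested were chosen after their values were seen.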

Additional observations from a re-analysis of the deposited data

How the results depend on the processing

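Under the 15 other settings, IL6, LIF, IL11, CLCF1, IL6R, IL6ST, LIFR, STAT3 and SOCS3 kept their direction, though STAT3 lost its call under some of them. Against a log2 fold change of 0.5 (glmTreat), 4 of the 10 genes were called (LIF, IL11, IL6 and IL6ST) and 7483 of all genes; this test asks for a larger change by construction. OSMR reversed to 0.17 on log2(TPM + 1), with or without the filter on low values, to 0.18 on log2(TPM + 0.1) and to 0.0033 without Myrrh replicate 2, in a range of -0.073 to 0.0033 with 1 library left out; the cause was not tested. In group means, the log2 ratio of OSMR was -0.035 in CPM against 0.18 in TPM, and that of IL11 1.39 against 1.21. Counted at 2-fold, 2783 genes passed with a filter of 5 CPM in 3 libraries, which tests fewer genes, 2921 (1474 higher, 1447 lower) on log2(TPM + 1) and 2999 on that scale for every gene above 0, against 4814 (1859 higher, 2955 lower). Leaving out 1 library at a time, 9 members were called each time, with 12362 to 12893 genes called in all and 4901 to 5100 at 2-fold.

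No label says that the replicate numbers pair the libraries. Over all tested genes, the deviations of same-numbered libraries from their group means correlated at -0.06 to 0.04, which does not settle whether they were paired. With the replicate block, 9 members and 12782 genes were called. Genes with few counts, such as CNTF and SAA2, are limited by depth.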
